A study of Homo sapiens with 12 samples.

Results

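The hypoxia-induced and glycolytic genes are 38 genes chosen by symbol, of which 16 measured here belong to the hypoxia response and 19 to glucose uptake and glycolysis. They were read on whole-transcript arrays of Granta 519, a mantle cell lymphoma (MCL) B cell line that expresses the transcription factor SOX11. For each gene the probe set with the highest mean signal was used, which gave 35 genes with a probe set of their own among 33297 probe sets on the array. PGAM1 was listed only on probe sets that also carry PGAM4, and CA9 and SLC16A3 were not analysed here. The 12 arrays fell into 3 groups of 4. One group was untreated, one was electroporated with 100 pmol of control siRNA, and one with 100 pmol of SOX11 siRNA, each transfection using 4000000 cells that were harvested after 20 hours. All groups are the same cell line grown in RPMI 1640 medium with fetal bovine serum, and no oxygen level other than that of the incubator is given in the sources used here. RNA came from individual transfection experiments, so the p-values below measure the spread between transfections, or between untreated samples, of 1 cell line. No culture time or cell number is given here for the untreated arrays. Control siRNA against untreated therefore holds electroporation, siRNA and any difference in handling or culture time together, which cannot be told apart. SOX11 siRNA against control siRNA is the comparison that isolates the SOX11 siRNA. The labels do not say which SOX11 siRNA sequence the arrays used, and effects of its sequence on other transcripts and those of SOX11 loss cannot be told apart.

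Cells sense oxygen through hypoxia-inducible factor (HIF). In normal oxygen, the prolyl hydroxylases of the EGLN family mark the HIF alpha subunit for destruction, whereas in low oxygen it accumulates, pairs with ARNT and switches on target genes whose hypoxia response elements carry a short core sequence. These targets raise glucose uptake, nearly every step of glycolysis and lactate production, divert pyruvate from mitochondria, promote mitophagy and induce VEGFA, the main angiogenic growth factor. HIF activity is set mostly by protein stability, so the HIF1A transcript alone does not report it, and glycolytic genes are also driven by MYC and by growth signals in dividing B cell lymphoma cells.

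SOX11 signal was 1028, 978, 978 and 1041 in the untreated arrays, 1096, 1191, 1112 and 1026 with control siRNA and 227, 229, 188 and 225 with SOX11 siRNA, so the targeted transcript fell in every SOX11 siRNA array (log2 fold change against control siRNA -2.27 ± 0.09 (SE), limma adjusted p = 1.7e-09). The median signal of an array lay between 69.2 and 91.8, and the arrays of a group correlated at 0.989 or more. All 6 measured B cell markers had signal between 501 and 5071, and CD22 was the only one called, lower in both siRNA groups than in untreated cells (log2 fold change -0.53 ± 0.09 with control siRNA). Markers of T and NK, myeloid, erythroid, fibroblast and epithelial cells stayed between 4.33 and 319 in signal. Of these 26 genes only KRT18 was called, and only in SOX11 siRNA against untreated, where it was higher.

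Promoters are shown for the 4 genes with RefSeq entries that had the smallest p-values in the comparison of control siRNA with untreated cells, and for PGK1, whose level was nearly equal in those groups. Each is the 250 bases before the annotated start, read 5′ to 3′ on the gene's strand (RefSeq, GRCh38.p14), with the hypoxia response element core, ACGTG or GCGTG on either strand, in capitals. The palindrome CACGTG holds the core on both strands and counts as 2 matches.
ALDOC (chr17:28576896-28577145, minus strand): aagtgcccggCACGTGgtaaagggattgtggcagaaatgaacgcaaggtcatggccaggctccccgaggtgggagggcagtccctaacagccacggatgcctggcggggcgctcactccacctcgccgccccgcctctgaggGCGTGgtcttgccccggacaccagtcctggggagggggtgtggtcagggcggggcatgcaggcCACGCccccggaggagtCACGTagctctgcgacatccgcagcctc
PFKFB4 (chr3:48556804-48557053, minus strand): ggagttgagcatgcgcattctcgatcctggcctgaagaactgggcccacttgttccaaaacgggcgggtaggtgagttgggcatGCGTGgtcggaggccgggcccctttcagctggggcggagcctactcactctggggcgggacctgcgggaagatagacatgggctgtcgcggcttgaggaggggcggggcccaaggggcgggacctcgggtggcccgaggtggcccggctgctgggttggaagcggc
ANKRD37 (chr4:185396591-185396840, plus strand): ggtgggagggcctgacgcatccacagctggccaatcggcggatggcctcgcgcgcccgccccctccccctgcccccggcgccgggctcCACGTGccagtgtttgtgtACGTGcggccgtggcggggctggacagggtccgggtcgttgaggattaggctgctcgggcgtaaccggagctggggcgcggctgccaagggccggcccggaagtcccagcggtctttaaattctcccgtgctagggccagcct
PFKL (chr21:44299803-44300052, plus strand): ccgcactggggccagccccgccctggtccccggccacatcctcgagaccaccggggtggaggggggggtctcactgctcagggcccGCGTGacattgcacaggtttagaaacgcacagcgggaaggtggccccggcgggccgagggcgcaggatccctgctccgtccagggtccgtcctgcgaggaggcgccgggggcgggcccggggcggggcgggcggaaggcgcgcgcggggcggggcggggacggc
PGK1 (chrX:78103998-78104247, plus strand): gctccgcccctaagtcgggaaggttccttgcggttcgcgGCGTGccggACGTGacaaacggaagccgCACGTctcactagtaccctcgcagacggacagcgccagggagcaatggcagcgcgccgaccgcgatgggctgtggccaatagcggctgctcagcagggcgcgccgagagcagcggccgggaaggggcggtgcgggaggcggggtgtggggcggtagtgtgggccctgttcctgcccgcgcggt
ALDOC held 5 matches in 4 separate stretches, ANKRD37 and PGK1 held 3 each, and PFKL and PFKFB4 held 1 each. A core was present in 21 of the 31 members with a sequence used here, or 67.7%, beside 11763 of 27305 promoters of the same length, or 43.1%. Genes of 1 chromosome were left out of both counts. The 2 sets were not matched for gene type or base composition. For genes with several starts the first listed was used, VEGFA, SLC2A3, NDRG1 and BNIP3L had no sequence used here, and a match is a description of letters, not a binding site.

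In SOX11 siRNA against control siRNA, 0 of the 35 genes passed the test (limma, adjusted p under 0.05), where 61 of all 33297 probe sets did, or 0.183%. In RNA of whole cultures, fewer cells that express a gene and less of its RNA per cell cannot be told apart. One gene, PFKP, had an unadjusted p under 0.05, or 1 of 35 beside 4.26% of all probe sets. In none of the 35 genes were the arrays of both groups separate, beside 1.96% of all probe sets. The 95% intervals bound how large a difference could have gone unseen. Every interval lay between -0.39 and 0.48 on the log2 scale, and all 35 stayed inside a 1.5-fold difference in either direction. Fold changes here and below are on the log2(signal + 16) scale, which shrinks those of dim genes.

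**Figure D1:**
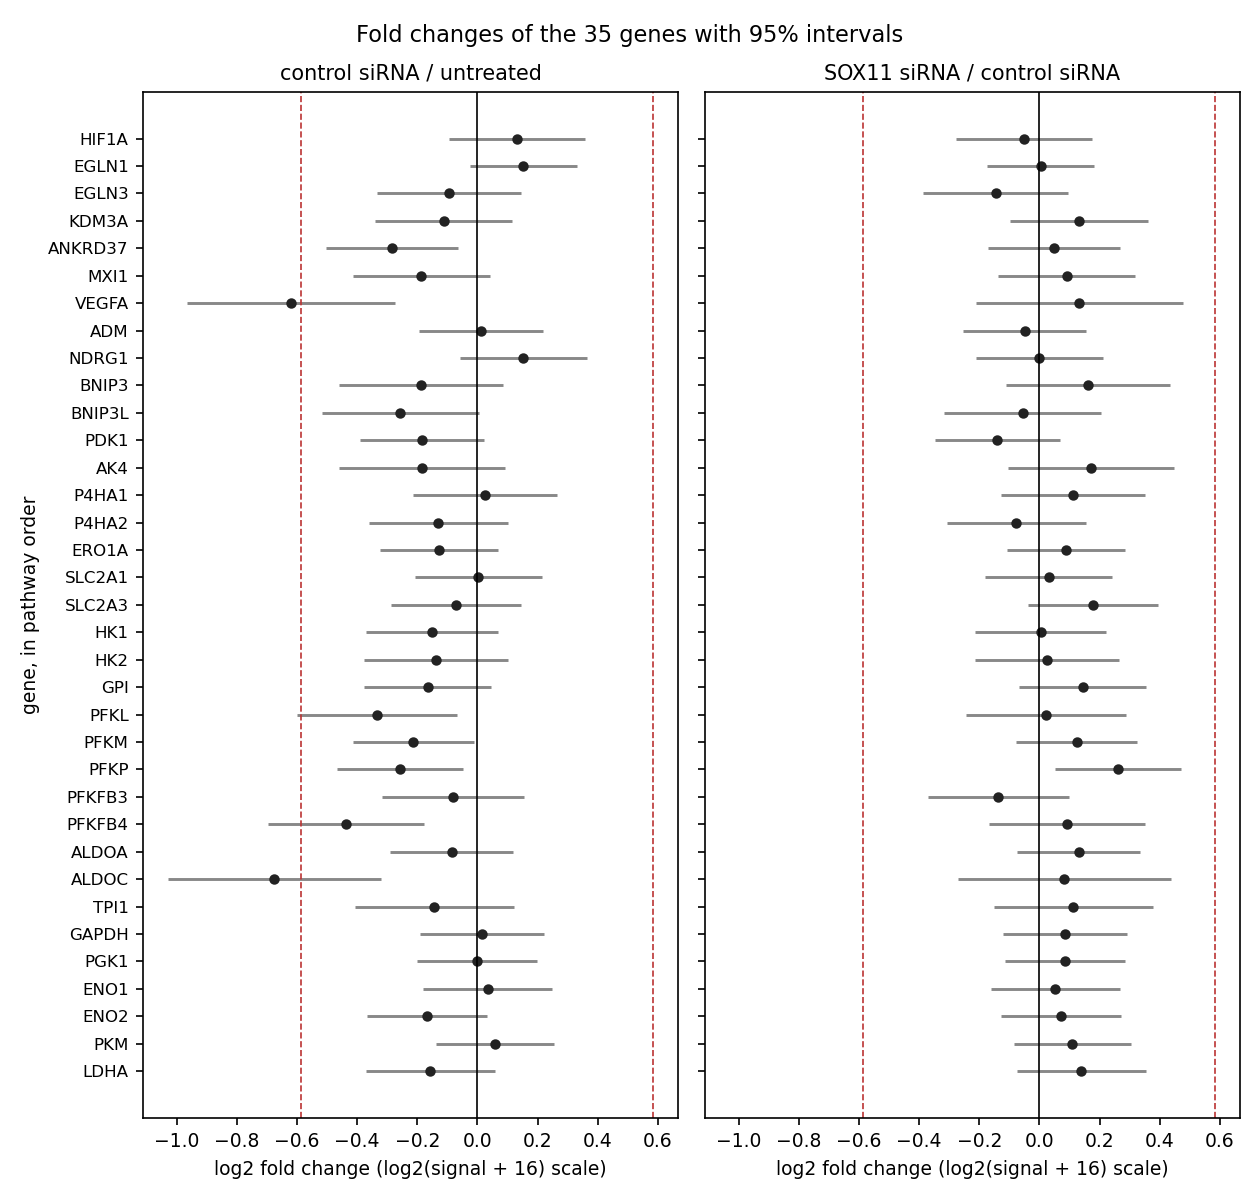
Log2 fold change of each of the 35 genes (points) with its 95% interval (lines) for control siRNA over untreated (left) and SOX11 siRNA over control siRNA (right), and dashed lines at a 1.5-fold difference. On the right every interval stays between -0.39 and 0.48, whereas on the left VEGFA and ALDOC reach furthest below 0.

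PFKP, the platelet-type isoform of phosphofructokinase, which commits glucose carbon to glycolysis, had the smallest p-value. Its signal was 448, 420.2, 450.1 and 360.0 with control siRNA and 565, 533, 449 and 477 with SOX11 siRNA. The groups met at 1 array of each, and the untreated arrays (499.9, 487, 528 and 496) lay inside the range of the SOX11 siRNA arrays. The log2 fold change was 0.26 ± 0.10, with an adjusted p of 0.92.

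SLC2A3, the high-affinity glucose transporter GLUT3, followed. It read 508, 588, 515 and 501 with control siRNA and 602, 669.6, 494 and 643 with SOX11 siRNA, a log2 difference of 0.18 ± 0.10. The SOX11 siRNA group held both the lowest and the highest of these 8 arrays. GPI, which turns glucose-6-phosphate into fructose-6-phosphate, read 1738, 1740.0, 1762 and 1455 with control siRNA and 2100.0, 1886, 1628 and 1797 with SOX11 siRNA, a log2 difference of 0.14 ± 0.10. Control siRNA array 4 lay well below the other 3 control arrays for this gene.

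LDHA, which makes lactate from pyruvate, read 5642, 6113, 5964 and 4874 with control siRNA and 6942, 6543, 5887 and 5527 with SOX11 siRNA. ALDOA, the main aldolase outside liver and brain, read 2405, 2573, 2493 and 2064 beside 2872, 2679, 2485 and 2398. Both genes had overlapping groups, with log2 differences of 0.14 ± 0.10 and 0.13 ± 0.10. PDK1, a kinase that inhibits pyruvate dehydrogenase, was the only 1 of these 6 genes with a difference below 0. It read 228, 223, 225 and 196 with control siRNA and 222, 188, 169 and 209.5 with SOX11 siRNA, a log2 difference of -0.14 ± 0.10. The adjusted p of SLC2A3, GPI, LDHA, ALDOA and PDK1 was 1.

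The differences leaned to one side without any of them passing the test. Of the 35 log2 fold changes, 8 were below 0, or 22.9%, beside 47.8% of all probe sets, and their median was 0.09 beside 0.01. Among the hypoxia genes 7 of 16 were below 0, and among the glucose and glycolysis genes 1 of 19, namely PFKFB3. All 9 genes of the segment from aldolase to lactate were above 0, between 0.05 and 0.14. With quantile normalization 12 of the 35 were below 0, or 34.3%, beside 46.0% of all probe sets, and 5 of the 19. The lean was smaller without control siRNA array 4. On that array the median deviation of the 35 genes from their means over all arrays was -0.23, beside -0.11 for all probe sets, whereas the other control arrays lay between -0.03 and 0.04. Without it, 14 of the 35 log2 fold changes were below 0, beside 57.9% of all probe sets, with medians of 0.02 and -0.02, and 7 of the 19 glucose and glycolysis genes were below 0. Without SOX11 siRNA array 1, the highest of its group at 0.14, 14 of the 35 were again below 0, beside 56.1% of all probe sets. All probe sets thus shifted with the members when either array was left out. The lean was not smaller without SOX11 siRNA array 4, where 10 of the 35 were below 0, beside 57.4%, with medians of 0.10 and -0.02. Leaving out SOX11 siRNA array 2 gave 10, beside 44.5%, and array 3 gave 5, beside 33.0%. Leaving out control siRNA array 1, 2 or 3 gave 8 each, beside 42.0%, 42.4% and 49.8%. In each of these fits the members were below 0 less often than all probe sets. Genes can move together on an array and the refits share most arrays, so these counts are not independent observations. The median deviations of the 19 glucose and glycolysis genes were -0.02, 0.04, 0.01 and -0.26 on control siRNA arrays 1 to 4. On SOX11 siRNA arrays 1 to 4 they were 0.16, 0.09, -0.09 and -0.07, so the groups overlapped. Whether the lean exceeds the spread between arrays was not tested.

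**Figure D2:**
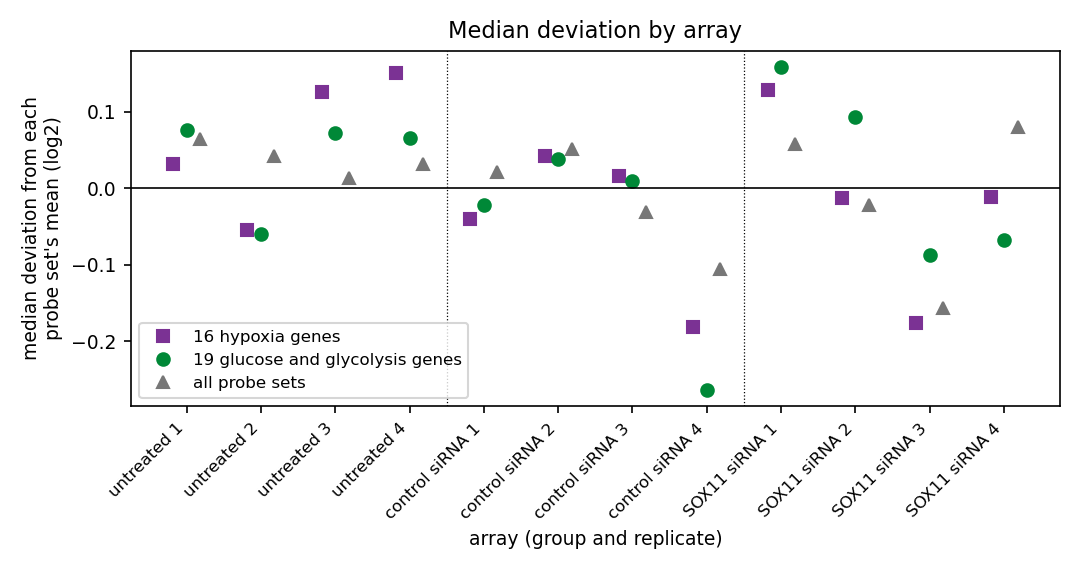
Median deviation of log2(signal + 16) from each probe set's mean over the 12 arrays, for the 16 hypoxia genes (squares), the 19 glucose and glycolysis genes (circles) and all probe sets (triangles), by array. Control siRNA array 4 is the lowest for the glucose and glycolysis genes, at -0.26, and SOX11 siRNA array 1 the highest, at 0.16.

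Control siRNA against untreated asked what differs after electroporation and siRNA delivery, with any difference in handling or culture time included. Again 0 of the 35 genes passed the test, beside 129 of all probe sets, or 0.387%. The unadjusted p was under 0.05 for 7 genes, each lower with control siRNA, beside 8.57% of all probe sets. They were ALDOC, VEGFA, PFKFB4, ANKRD37, PFKL, PFKP and PFKM. In 5 genes, VEGFA, PFKFB4, ANKRD37, PFKL and PFKP, every control siRNA array read below every untreated array, beside 7.97% of all probe sets with separate groups in either direction. Of the 19460 probe sets with 1 gene symbol, 10.1% had an unadjusted p under 0.05 and 2016 had separate groups. The log2 fold changes of the 35 genes had a median of -0.14, where that of all probe sets was -0.06, and 26 of 35 were below 0, or 74.3%, beside 67.9%. The median was -0.11 with quantile normalization, beside -0.001 for all probe sets. It was -0.06 beside 0.02 with median centring, and -0.08 beside -0.03 without control siRNA array 4. This comparison and SOX11 siRNA against control siRNA share the control siRNA arrays. Low control arrays move their medians in opposite directions, so these leans are not separate results.

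ALDOC, the brain-type aldolase and a target of HIF, had the smallest p-value. Its signal was 569.5, 469.6, 680.5 and 683 in untreated cells, 601 ± 102 (SD, n = 4), and 399, 345, 482 and 269 with control siRNA, 374 ± 89.5. Only untreated array 2 and control siRNA array 3 crossed. The log2 fold change was -0.68 ± 0.17, with an adjusted p of 0.115.

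VEGFA read 299, 260.2, 160.2 and 196 in untreated cells and 129, 159, 130.2 and 141 with control siRNA. The groups were separate, but the lowest untreated array nearly met the highest control array, and the untreated spread (SD 62.6) was far above that of the control arrays (SD 13.6). The log2 fold change was -0.62 ± 0.16, with an adjusted p of 0.146. PFKFB4, which raises fructose-2,6-bisphosphate and thereby activates phosphofructokinase, read 47.4, 53.4, 48.1 and 53.5 in untreated cells and 39.6, 32.5, 35.5 and 26.1 with control siRNA. These groups were separate, with a log2 fold change of -0.44 ± 0.12 and an adjusted p of 0.193.

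PFKL, the liver-type phosphofructokinase, read 646, 612, 646 and 625 in untreated cells and 560.4, 504, 575 and 378 with control siRNA. The untreated arrays were tight and control siRNA array 4 was far below the rest, and the log2 fold change was -0.33 ± 0.13 with an adjusted p of 0.44. ANKRD37, a small ankyrin repeat protein induced by HIF, read 351, 308, 339 and 316 in untreated cells and 277, 296, 248 and 249 with control siRNA. Its groups were separate, with a log2 fold change of -0.28 ± 0.10 and an adjusted p of 0.422. PFKP, with the values given above, had a log2 fold change of -0.26 ± 0.10 and an adjusted p of 0.457. PFKM, the muscle-type isoform, read from 1002 to 1247 in untreated cells and from 886 to 1074 with control siRNA, a log2 fold change of -0.21 ± 0.09.

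**Figure D3:**
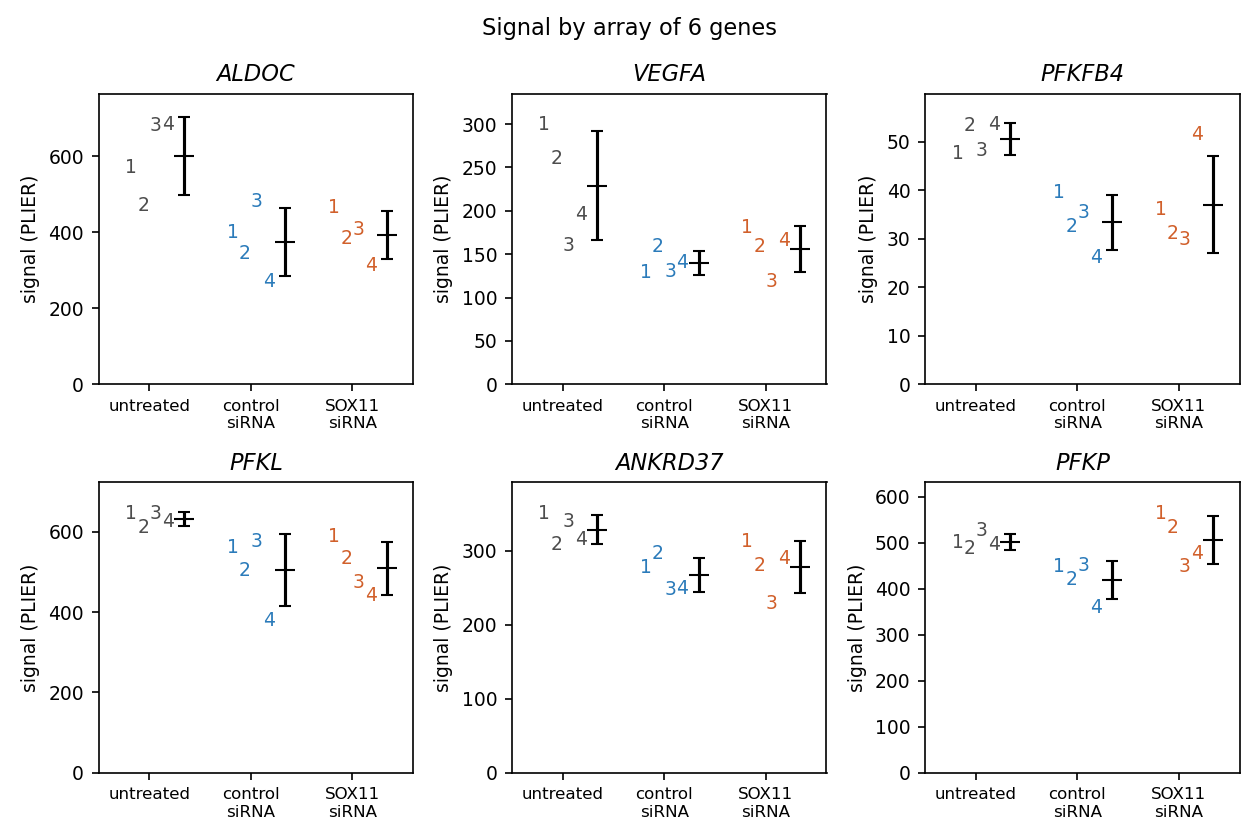
Signal of ALDOC, VEGFA, PFKFB4, PFKL, ANKRD37 and PFKP on each array, with digits giving the replicate number and black marks the mean and SD of 4 arrays. Every control siRNA array lies below every untreated array except in ALDOC, and the SOX11 siRNA arrays overlap the control siRNA arrays in each gene.

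All 8 genes of the segment from hexokinase to fructose bisphosphate had log2 fold changes below 0, between -0.44 and -0.08, and this count was also 8 with quantile normalization, with median centring and without control siRNA array 4. HK1 and HK2, the hexokinases that trap glucose in the cell, were at -0.15 ± 0.10 and -0.14 ± 0.11. GPI was at -0.17 ± 0.10, and PFKFB3, the paralogue of PFKFB4 that is widely induced in tumours, at -0.08 ± 0.11. The segment from aldolase to lactate had 6 of 9 genes below 0. Apart from ALDOC its genes lay between -0.17 (ENO2) and 0.06 (PKM). The glucose transporters SLC2A1 and SLC2A3 were at 0.00 ± 0.10 and -0.07 ± 0.10.

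VEGFA did not share its pattern among the untreated arrays with ALDOC. VEGFA was highest in untreated arrays 1 and 2 and ALDOC in arrays 3 and 4. The pattern of VEGFA recurred in DDIT4, VLDLR and STC2, other HIF targets, which were picked out after their values were seen. Not all HIF targets shared it, as HILPDA, GBE1 and CXCR4 were highest in untreated array 3 or 4. CCNG2 was highest in untreated arrays 1 and 2, and how many others share the pattern was not counted. DDIT4, an inhibitor of mTORC1, read 929.9, 646, 392 and 466 in untreated cells and 305, 343, 334 and 230.5 with control siRNA. VLDLR, a lipoprotein receptor, read 426, 309, 150.3 and 207 beside 133, 166, 138 and 127. STC2, a secreted glycoprotein, read 96.1, 57.0, 15.2 and 30.4 beside 15.5, 25.9, 24.9 and 17.6. In each, untreated array 1 was the highest and array 3 the lowest of the untreated group. None passed the test, with log2 fold changes of -0.91 ± 0.22, -0.79 ± 0.22 and -0.68 ± 0.27 and adjusted p-values of 0.113, 0.187 and 0.486.

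**Figure D4:**
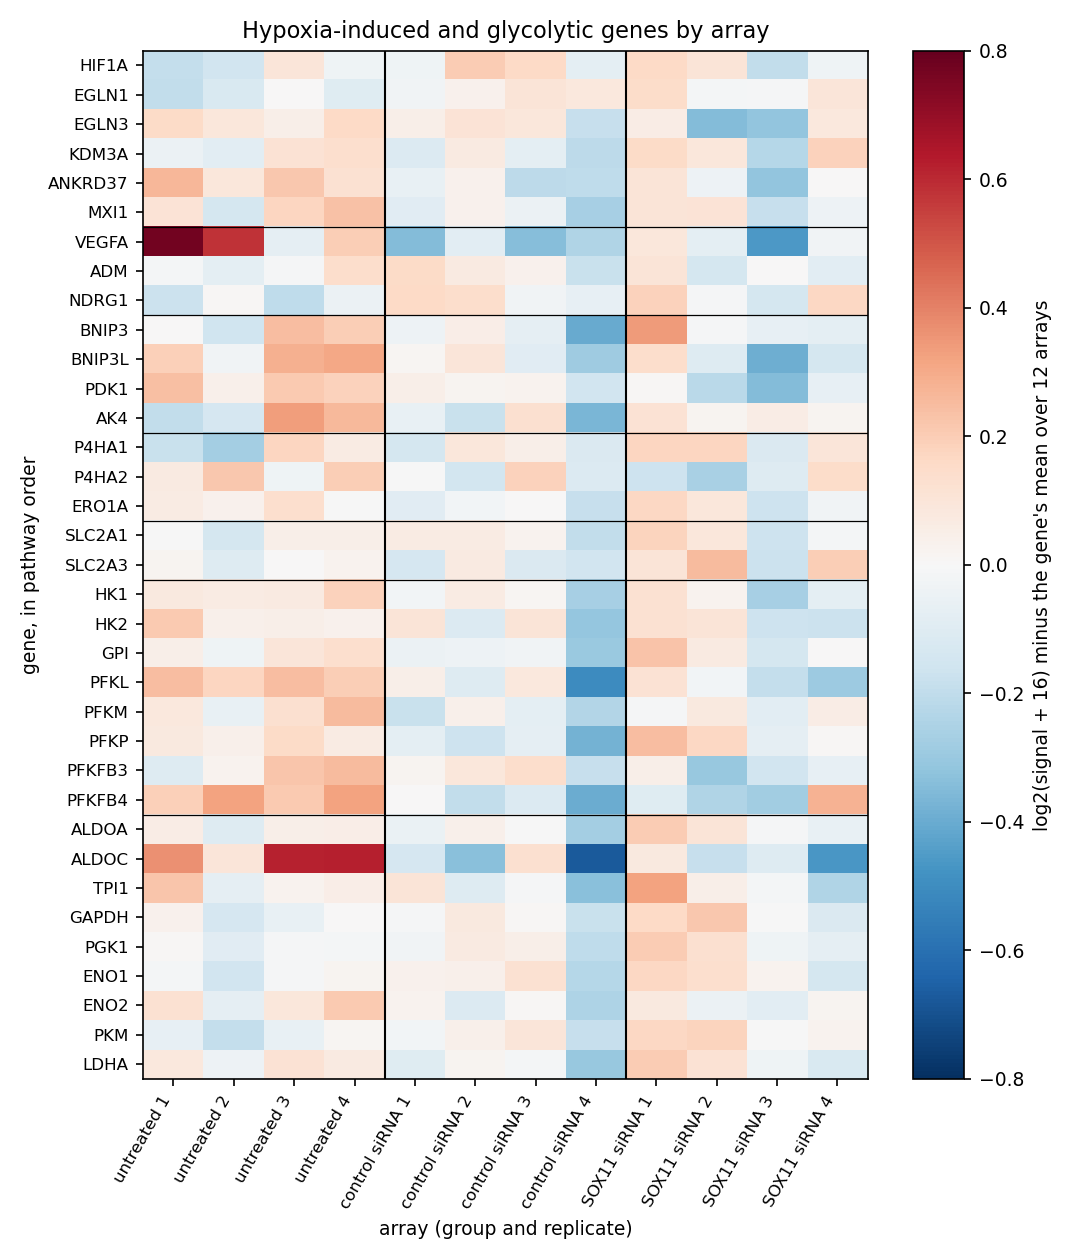
Log2(signal + 16) of each of the 35 genes minus its mean over the 12 arrays, by array, with black lines between the groups and between the roles of the genes. VEGFA stands out in untreated arrays 1 and 2, ALDOC in untreated arrays 3 and 4, and control siRNA array 4 is below the mean in each of the 19 glucose and glycolysis genes.

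SOX11 siRNA against untreated spans both steps and shares its arrays with both other comparisons. It called 0 of the 35 genes, beside 800 of all probe sets, or 2.4%. The unadjusted p was under 0.05 for 7 genes, each lower with SOX11 siRNA, beside 14.9% of all probe sets. In 3 genes, ALDOC, PDK1 and PFKL, the groups were separate, beside 7.84% of all probe sets. Of the 19460 probe sets with 1 gene symbol, 16.7% had an unadjusted p under 0.05 and 1868 had separate groups. The log2 fold changes had a median of -0.03, where that of all probe sets was -0.06, and with median centring it was 0.07 beside 0.05.

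ALDOC read 464, 384, 407 and 313 with SOX11 siRNA, below every untreated array (log2 fold change -0.59 ± 0.17, adjusted p = 0.0803). PDK1 read 263, 227, 257 and 252 in untreated cells, above the 4 SOX11 siRNA arrays given above (log2 fold change -0.32 ± 0.10, adjusted p = 0.105). VEGFA read 181, 159, 118 and 166 with SOX11 siRNA, a range that takes in the lowest untreated array (log2 fold change -0.49 ± 0.16, adjusted p = 0.147). These 3 genes came nearest to the threshold. PFKFB4 read 35.9, 31.0, 29.8 and 51.4 with SOX11 siRNA, where array 4 alone was at the untreated level, and its log2 fold change was -0.35 ± 0.12 (adjusted p = 0.181). BNIP3L, a mitophagy receptor of the outer mitochondrial membrane, read 440.3, 377, 473 and 481 in untreated cells and 426, 358, 289.8 and 348 with SOX11 siRNA, with overlapping groups. Its log2 fold change was -0.31 ± 0.12 (adjusted p = 0.234). PFKL read 589, 533, 473 and 441 with SOX11 siRNA, below the untreated arrays, and differed by -0.31 ± 0.13 (adjusted p = 0.243).

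For HIF1A, EGLN1, EGLN3, KDM3A and MXI1, groups overlapped in each comparison. HIF1A read between 1201 and 1584 over the 12 arrays, with log2 fold changes of 0.13 ± 0.11 for control siRNA against untreated and -0.05 ± 0.11 for SOX11 siRNA against control siRNA. EGLN1, the principal oxygen sensor, read between 261 and 335, and EGLN3, a prolyl hydroxylase that is itself induced by HIF, between 124 and 183. EGLN1 differed by 0.00 ± 0.08 between the siRNA groups and EGLN3 by -0.15 ± 0.11. KDM3A, a histone demethylase induced in low oxygen, read between 299 and 403, and MXI1, an antagonist of MYC, between 177 and 256. MXI1 and KDM3A differed by 0.09 ± 0.11 and 0.13 ± 0.11 between the siRNA groups.

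Among the remaining hypoxia genes, ADM, a secreted vasodilator peptide, read between 76.6 and 101, and NDRG1, a classical hypoxia marker, between 90.7 and 123. BNIP3, the second mitophagy receptor, read between 221 and 380.0, its highest value being SOX11 siRNA array 1. AK4, a mitochondrial adenylate kinase, read between 83.1 and 145 on the probe set used. Its groups and those of BNIP3 overlapped throughout. AK4 had a dimmer second probe set, which differed by 0.00 ± 0.12 between the siRNA groups beside 0.17 ± 0.13 for the one used. Which locus each AK4 probe set reads was not tested. P4HA1 and P4HA2, collagen prolyl hydroxylase subunits, read between 419 and 576 and between 41.0 and 63.4. ERO1A, which oxidises the enzyme that forms disulphide bonds, read between 758 and 969. No comparison of these 7 genes reached an adjusted p under 0.3.

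The enzymes of the shared lower steps of glycolysis varied little between the groups. GAPDH read between 8372 and 10970, PGK1, the first step that returns ATP, between 3820 and 5085, and ENO1 between 5290 and 6940. PKM, the last step, read between 3237 and 4182 and TPI1 between 2798 and 4414 on the probe set used. TPI1 had another, dimmer probe set, whose values are not given here. Between the siRNA groups these 5 genes differed by 0.05 to 0.11 on the log2 scale, with SEs of 0.09 to 0.12. ENO2, the neuronal enolase, read between 126 and 179. The probe sets that PGAM1 shares with PGAM4 had log2 fold changes of about -0.16 ± 0.10 for control siRNA against untreated and 0.10 ± 0.10 for SOX11 siRNA against control siRNA, close to the values of LDHA. GAPDH, PGK1, ENO1, TPI1 and LDHA have processed pseudogenes, and cross-hybridization to their transcripts was not tested.

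The wider pathway was read from 75 further genes, 9 regulators of HIF, 36 other HIF targets and 30 other genes of glycolysis and pyruvate use. In SOX11 siRNA against control siRNA, 1 of the 75 was called, HILPDA, which fell, beside 0.183% of all probe sets. The study had already listed HILPDA, under an older name, among the genes that fell with SOX11 siRNA on these arrays. Its call was thus known in advance, and the count of 1 says nothing about the wider pathway. In control siRNA against untreated 1 was called, HMOX1, which rose, beside 0.387%. In SOX11 siRNA against untreated 2 rose, HMOX1 and TIGAR, and 5 fell, HILPDA, CCNG2, CXCR4, NARF and BPGM, or 7 of 75 beside 2.4% of all probe sets. Of the 19460 probe sets with 1 gene symbol, 217 rose and 388 fell in that comparison. None of the 9 regulators was called in any comparison.

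HILPDA, a lipid droplet protein induced by HIF that inhibits triglyceride breakdown, read 330.1, 287, 342 and 349 in untreated cells, 329.7, 294, 287 and 233 with control siRNA and 146, 106, 115 and 100.4 with SOX11 siRNA. Every SOX11 siRNA array lay below every other array. Against control siRNA the log2 fold change was -1.19 ± 0.12 (adjusted p = 0.000451), outside the interval of each of the 35 genes, the lowest of which ended at -0.39. HMOX1, the haem-degrading enzyme induced by oxidative stress as well as by HIF, read 129, 137, 118 and 133 in untreated cells, 306, 329.9, 242 and 254 with control siRNA and 377, 313, 276 and 349 with SOX11 siRNA. It was higher in both siRNA groups than in every untreated array (log2 fold change 1.03 ± 0.12 with control siRNA, adjusted p = 0.00091), while the siRNA groups overlapped.

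**Figure D5:**
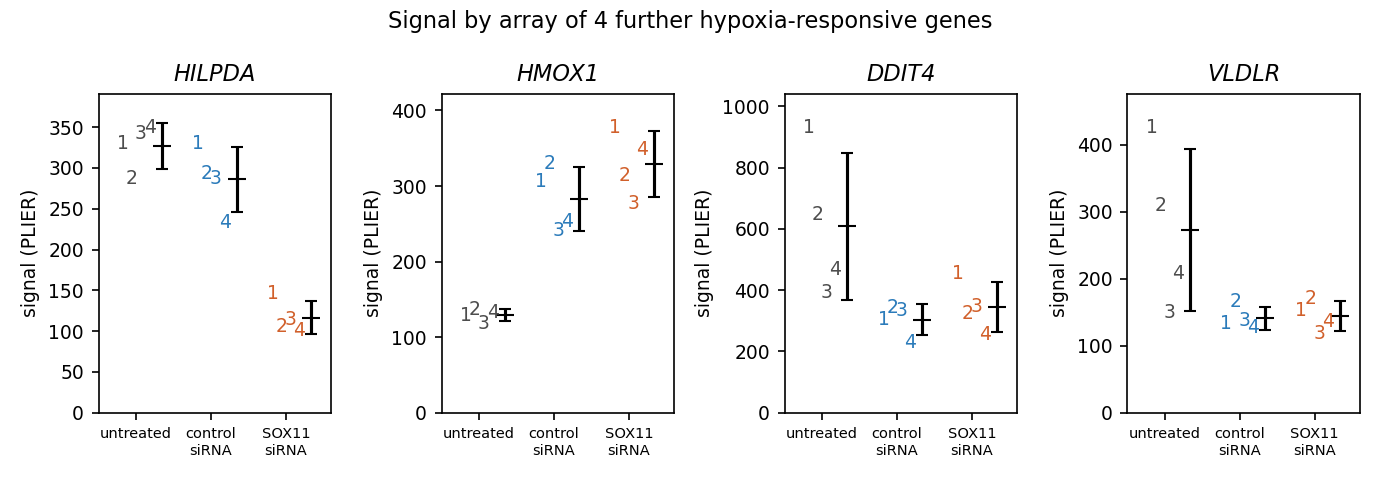
Signal of HILPDA, HMOX1, DDIT4 and VLDLR on each array, with digits giving the replicate number and black marks the mean and SD of 4 arrays. HILPDA is lower in the 4 SOX11 siRNA arrays than in any other, HMOX1 is higher in both siRNA groups than in untreated cells, and DDIT4 and VLDLR are highest in untreated arrays 1 and 2.

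CXCR4, the chemokine receptor that guides B cells to lymphoid tissue and bone marrow, read 1000.0, 1151, 1058 and 892 with control siRNA and 879.9, 782, 667 and 704 with SOX11 siRNA. NARF, a nuclear protein, read 541, 554, 481 and 467 beside 385, 373, 277 and 372. PGM1, which links glycogen to glucose-6-phosphate, read 440.4, 506, 484 and 412 beside 694, 659, 534 and 639. The groups were separate in each, CXCR4 and NARF being lower and PGM1 higher with SOX11 siRNA, but none was called (adjusted p = 0.27, 0.0777 and 0.176). Untreated cells read 1175, 1029, 1272 and 1157 for CXCR4 and 524, 476, 501 and 501 for NARF. Against them both fell with SOX11 siRNA, by 0.60 and 0.50 on the log2 scale (adjusted p = 0.00826 and 0.0215).

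CCNG2, an atypical cyclin of quiescent cells, read 1086, 916, 846 and 809 in untreated cells, 719, 782, 712 and 646 with control siRNA and 613, 564, 409 and 496 with SOX11 siRNA. The 3 groups were separate from each other, and the total log2 fold change of -0.80 ± 0.13 was called (adjusted p = 0.00272). TIGAR, a p53-induced phosphatase that lowers fructose-2,6-bisphosphate, read 528, 616, 754 and 716 in untreated cells, 757, 944, 835 and 775 with control siRNA and 1016, 879, 855 and 905 with SOX11 siRNA. It was higher in both siRNA groups than in untreated cells (log2 fold change 0.48 ± 0.12 for SOX11 siRNA, adjusted p = 0.0389). BPGM, which makes 2,3-bisphosphoglycerate, read 381, 406, 423 and 415 in untreated cells, 365, 383, 357 and 296 with control siRNA and 352, 307, 261 and 274 with SOX11 siRNA. It fell with SOX11 siRNA below every untreated array (log2 fold change -0.43 ± 0.11, adjusted p = 0.045). GBE1, the glycogen branching enzyme, read 1453, 1364, 1625 and 1570.0 in untreated cells and 1171, 1252, 1296 and 1076 with control siRNA, separate groups with an adjusted p of 0.276. None of these 4 genes was called between the siRNA groups.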

How the data were processed

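RNA was hybridised to Human Gene 1.0 ST arrays, 1 per transfection or untreated sample. The authors deposited linear intensity values per probe set, made per the labels with PLIER (Affymetrix Expression Console 1.1), where background came from probes of like GC content and arrays were scaled to a global median. The medians of the deposited arrays still lay between 69.2 and 91.8, and the main fit applied no further scaling. The study's own statistics started from another summary of the arrays and were not used. Of the 33297 probe sets, 19460 carried 1 gene symbol. Values were taken as log2(value + 16), and the 3 groups were fitted together with limma 3.58.1 in R 4.3.3, with Benjamini-Hochberg adjustment over all probe sets and calls at an adjusted p under 0.05. The script was tested on simulated data. Members, pathway lists and marker lists were chosen with earlier results of these data known. Values on every array of the groups compared are given for the 6 members with the smallest p in each comparison, and for other pathway genes that were called or among the 4 with the smallest p. STC2 was added after its values were seen. Alternatives were other normalizations, pseudocount, filter, priors, array weights, a replicate block, fits on 8 arrays, the methods' analysis of variance and leaving out each array. Samples with the same replicate number did not deviate together in every pair (correlations from -0.315 to 0.444). In SOX11 siRNA against control siRNA, same-numbered pairs correlated between 0.043 and 0.332, and other pairs between -0.428 and 0.288. These correlations do not settle whether the samples were paired. The main fit left out the pairing, as did the study's one-way analysis of variance.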

Additional observations from a re-analysis of the deposited data

Results flagged for a closer look

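Among 138 gene and group sets of 4 arrays, 8 had 1 array set apart from the other 3 by Dixon's rule (its gap to the nearest over the group's range, against the 95% critical value for 4 samples), where chance gives about 1 in 20. Signals in this paragraph are rounded to 3 significant digits. Control siRNA array 4 was the low array in 3 of them, PDK1 at 196 (others 223 to 228), SLC2A1 at 684 (others 804 to 826) and GPI at 1460 (others 1740 to 1760). BNIP3 was high in SOX11 siRNA array 1, at 380 beside 280 to 295. HK2 was high in untreated array 1, at 777 beside 687 to 690, and HK1 in untreated array 4, at 417 beside 382 to 385. ALDOA was low in untreated array 2, at 2320 beside 2580 to 2610, and NARF in SOX11 siRNA array 3, at 277 beside 372 to 385.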

How the results depend on the processing

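In SOX11 siRNA against control siRNA, 0 of the 35 genes were called in all 23 settings run. In control siRNA against untreated, 0 were called in 20 of the 23, with 2 called with array weights (VEGFA and PFKFB4), 2 without dim probe sets (VEGFA and ALDOC) and 1 with a replicate block and quantile normalization (ALDOC), all lower. In SOX11 siRNA against untreated, 0 were called in 17 of the 23. There 4 were called with quantile normalization (NDRG1 higher, ANKRD37, BNIP3L and PDK1 lower), 5 with a replicate block and quantile normalization (NDRG1 higher, BNIP3L, PDK1, PFKL and ALDOC lower) and 1 without dim probe sets (ALDOC). Leaving out 1 array gave 0 to 1 (ALDOC without control siRNA array 4, VEGFA without untreated array 3, PFKFB4 without SOX11 siRNA array 4). The replicate block alone called 0 of the 35 genes in each comparison. Among all probe sets quantile normalization raised the calls from 129, 61 and 800 to 644, 224 and 2374, and the cause was not tested. The calls of HILPDA and HMOX1 held in each of the 22 alternatives, whereas against untreated those of NARF, TIGAR and BPGM held in 16, 10 and 6 of them. Of the genes and comparisons given on every array for their p-value or call, none changed direction over 724 refitted values, whereas small differences of other members did. The number of arrays limits the precision, which the 95% intervals give.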
